A study of Rattus norvegicus with 6 samples.

Results

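Transcript levels of 45 genes that act in mitosis or in the passage from G2 into mitosis were examined in a rat mast cell model stimulated through Dectin-1, a surface receptor for beta-glucans. The genes were taken by name, and each was represented by the brightest probe set whose annotation gave exactly 1 symbol. Of the 45 genes, 40 had such a probe set among the 14506 named genes and 29214 probe sets of the table. Mki67, Cenpe, Cenpf, Anln and Espl1 had none matched and were not analysed here. All 6 samples were RBL-2H3, a basophilic leukaemia cell line of the rat that serves as a mast cell model, and all overexpressed wild-type Dectin-1. The labels gave 3 groups of 2 arrays: unstimulated control cells, cells stimulated with Curdlan (a beta-glucan), and cells pretreated with R406, an inhibitor of the kinase Syk, and then stimulated with Curdlan. The sources used here give no doses, no times, no species for the receptor construct and no word on whether the line was 1 clone. No group received R406 without Curdlan, so an effect of R406 on the Curdlan response and an effect on the cells themselves cannot be told apart.

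Entry into mitosis is driven by CDK1 bound to B-type or A-type cyclins, which CDC25 phosphatases activate. Polo-like and Aurora kinases then act on centrosomes and chromosomes, kinesins and microtubule-bundling proteins build the spindle, and the anaphase-promoting complex ends mitosis by tagging cyclin B and securin for destruction. Transcripts of most of these genes are low in G1 and peak in G2 and mitosis. That timing is set by the MuvB complex with B-MYB and FOXM1, which acts at promoters through the cell cycle homology region (CHR), and by NF-Y, which binds CCAAT boxes.

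Because many of these genes share the same promoter elements, their promoters are shown before their levels. RefSeq promoter windows of 300 bases (assembly GRCr8, 250 bases before the start site and 50 after it) were matched for 38 of the 45 genes, and not for Ccna2, Aurkb, Tpx2, Ube2c, Racgap1, Foxm1 and Incenp. Where a gene ID had several windows, the one listed first was used. The letters TTTGAA or TTTAAA, forms of the CHR, occurred on either strand in 35 of the 38 windows (92.1%), against 27.9% of the 27457 windows of all genes and 26.1% of the 19005 windows of protein-coding genes. CCAAT occurred on either strand in 29 of the 38 (76.3%), against 37.7% of all windows. CCAAT together with either CHR form was found in 26 (68.4%), against 11.1% of all. The E2F forms TTTCGCG and TTTGGCG were found in 2 of the 38 (5.26%), those of Cdk1 and Cdca8, against 2.36% of all. TTTAAA reads the same on both strands, and none of these words contains another. These shares describe letters in a window, not bound sites. Genes called higher under R406 plus curdlan than curdlan had 20 windows, and measured genes not called had 13. A CHR form occurred in 90% of the former and 92.3% of the latter, and CCAAT in 75% and 76.9%. The 5 windows below belong to the 3 genes with the largest rise under R406 and to Plk1 and Ccnb1, with CCAAT (or ATTGG, the same letters on the other strand) and CHR letters in capitals.
Nusap1 (GRCr8 chr3:127057045-127057344, plus strand): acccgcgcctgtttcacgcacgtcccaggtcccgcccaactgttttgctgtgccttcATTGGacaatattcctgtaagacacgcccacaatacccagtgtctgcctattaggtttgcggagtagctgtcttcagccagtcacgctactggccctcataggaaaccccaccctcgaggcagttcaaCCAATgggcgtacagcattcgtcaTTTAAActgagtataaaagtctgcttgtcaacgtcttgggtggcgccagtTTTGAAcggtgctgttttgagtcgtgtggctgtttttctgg
Cdc25b (GRCr8 chr3:138859923-138860222, plus strand): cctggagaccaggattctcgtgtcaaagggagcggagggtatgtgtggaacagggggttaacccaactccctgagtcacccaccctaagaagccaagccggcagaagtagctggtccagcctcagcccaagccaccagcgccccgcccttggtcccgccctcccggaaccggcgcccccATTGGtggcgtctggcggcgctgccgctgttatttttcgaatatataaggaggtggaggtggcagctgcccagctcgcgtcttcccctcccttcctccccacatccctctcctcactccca
Aurka (GRCr8 chr3:181560720-181561019, minus strand): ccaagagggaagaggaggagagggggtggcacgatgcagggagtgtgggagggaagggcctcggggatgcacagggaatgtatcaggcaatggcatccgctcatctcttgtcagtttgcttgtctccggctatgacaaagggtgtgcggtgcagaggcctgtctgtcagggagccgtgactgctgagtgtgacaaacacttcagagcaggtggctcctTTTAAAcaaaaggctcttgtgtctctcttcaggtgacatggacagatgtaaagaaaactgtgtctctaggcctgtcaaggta
Plk1 (GRCr8 chr1:186147408-186147707, plus strand): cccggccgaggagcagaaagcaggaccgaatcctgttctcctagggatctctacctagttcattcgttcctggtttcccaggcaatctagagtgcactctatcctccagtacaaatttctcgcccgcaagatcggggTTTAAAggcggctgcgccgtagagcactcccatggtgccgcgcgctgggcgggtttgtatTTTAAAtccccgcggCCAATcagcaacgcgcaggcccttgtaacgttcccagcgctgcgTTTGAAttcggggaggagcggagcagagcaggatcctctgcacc
Ccnb1 (GRCr8 chr2:33655176-33655475, minus strand): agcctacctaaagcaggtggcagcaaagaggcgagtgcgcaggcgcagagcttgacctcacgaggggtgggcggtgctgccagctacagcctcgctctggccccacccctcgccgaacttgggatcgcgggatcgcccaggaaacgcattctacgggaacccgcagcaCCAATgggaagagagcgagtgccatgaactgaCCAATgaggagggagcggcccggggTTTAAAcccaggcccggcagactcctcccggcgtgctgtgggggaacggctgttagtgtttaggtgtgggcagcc
Nusap1 holds 2 CCAAT boxes and 2 CHR forms, the latter starting at -41 and 9 relative to the start site, counted as 0. Plk1 holds 3 CHR forms and 1 CCAAT box, Ccnb1 has 2 CCAAT boxes and 1 CHR form, and Cdc25b has 1 CCAAT box and no CHR form. The Aurka window has 1 CHR form and no CCAAT. In it, tctcttcag ends right before the listed start site and atg follows shortly after. That window may therefore lie inside the gene and miss the promoter of Aurka. The 3 windows without a CHR form were those of Cdc25b, Bub3 and Nek2.

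The authors deposited normalized signals on the log2 scale, where a difference of 1 is a doubling of the linear signal. The arrays had medians of 7.20 to 7.24, and the correlation between the arrays within a group was 0.9975 to 0.9981. Among mast cell markers, Fcer1a, Ms4a2, Fcer1g, Kit, Cpa3, Hdc, Gata2 and Hpgds had group means between 12.64 and 13.70, and the tryptase genes Tpsab1 and Tpsb2 between 6.02 and 6.39. Signals of different probes are not levels on 1 scale, so these values alone do not settle the cell type. Of the 12 mast cell markers measured, Tph1, of serotonin synthesis, was the one called: it rose by 0.72 ± 0.0792 with curdlan and fell by 0.69 ± 0.0792 under R406 against curdlan. The 9 macrophage and neutrophil markers had mean signals of 3.73 to 8.13 and the 9 fibroblast and epithelium markers 3.92 to 9.44. Of 7 measured lymphocyte markers Nkg7, also a gene of cytotoxic granules, stood at 13.80 and the others between 4.70 and 6.73. None of these 25 markers was called in any comparison, at a limma Benjamini-Hochberg adjusted p of 0.115 or above. Over all probe sets, 1.59% were called with curdlan, 7.25% under R406 against curdlan and 2.23% under R406 against control. The number of markers at an unadjusted p under 0.05 was 2 with curdlan, 2 under R406 against curdlan and 2 under R406 against control. In the same order, 14.4%, 22% and 20.4% of all probe sets met that limit.

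The mean signals of the 40 genes ran from 9.22 for Kif20b to 12.64 for Plk1, with a median of 11.21; signals of different probe sets do not rank the transcripts by abundance. The median of the 40 signals was 11.16 and 11.15 on the control arrays, 11.05 and 11.07 on the curdlan arrays, and 11.45 on both R406 plus curdlan arrays. Measured against its own control mean, the median gene stood at -0.02 on both curdlan arrays, and at 0.25 and 0.21 on the R406 plus curdlan arrays. Of the 40 genes, 30 had their highest value on R406 plus curdlan replicate 1 and 7 on replicate 2, and 0 had their lowest value on either. In RNA from whole cultures, a larger share of cells in G2 and mitosis and more transcript in each such cell cannot be told apart.

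**Figure D1:**
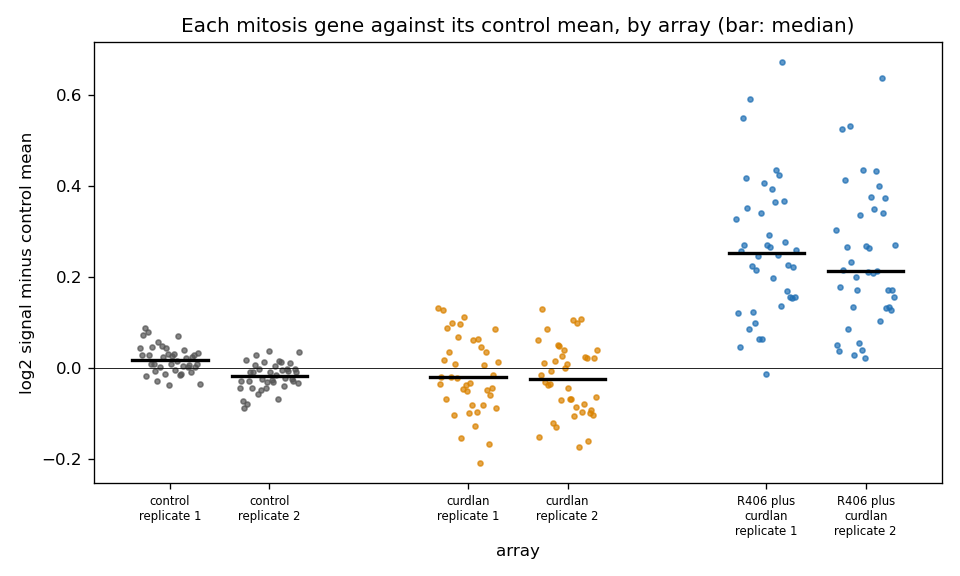
Each point is 1 of the 40 mitosis and G2/M genes, plotted as its log2 signal on that array minus its own control mean, with 1 column per array and a black bar at the median. The medians are near 0 on the control arrays, where they mirror each other by construction, -0.02 on both curdlan arrays, and 0.25 and 0.21 on the R406 plus curdlan arrays.

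Curdlan was set against control to ask what Dectin-1 stimulation does to these transcripts. With curdlan, 0 of the 40 mitosis genes were called higher or lower than in control cells (limma, with a Benjamini-Hochberg adjusted p under 0.05 across the whole table), against 1.59% of all probe sets called in either direction and 3.57% of the 5824 named genes at least as bright as the dimmest of the 40. At an unadjusted p under 0.05 there were 4, Kif2c, Dlgap5, Kif20a and Nek2, and each was lower; 14.4% of all probe sets met that limit. The median change was -0.02, against -0.01 over all probe sets. The largest difference was in Kif2c, a kinesin that depolymerizes microtubules, with 10.85 and 10.88 in control and 10.66 and 10.69 in curdlan arrays, a change of -0.19 ± 0.0458 (SE, adjusted p = 0.151). Dlgap5, which bundles spindle microtubules, came next at -0.16 ± 0.0444 (adjusted p = 0.192), and its curdlan arrays at 10.38 and 10.39 lay below its control arrays at 10.54 and 10.56. Cdk1 had the highest change, 0.13 ± 0.0729, with control arrays at 11.44 and 11.27 and curdlan arrays at 11.48 and 11.49 (adjusted p = 0.52). Across the 40 genes the 95% intervals of the change lay within -0.31 and 0.31. Kif2c and Dlgap5 were called lower when the fit was limited to probe sets above the median signal, where 10.8% of probe sets were called, and when the variance prior followed the signal, where 5.33% were.

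R406 plus curdlan was then set against curdlan alone, to ask how levels differ after pretreatment with the Syk inhibitor. The mitosis genes were higher under R406 plus curdlan: 21 of the 40 rose and 0 fell, where 4.02% of all probe sets were called higher (3.23% lower), as were 7.95% of named genes at least as bright as the dimmest of the 40. The median change of the 40 genes was 0.30, against -0.0019 over all probe sets, and 39 of them had a change above 0, as did 49.4% of all probe sets and 61.9% of named genes at or above the dimmest of the 40. At an unadjusted p under 0.05 there were 32 genes (22% of all probe sets and 35.7% of those named genes). In 38 genes both R406 plus curdlan arrays lay above both curdlan arrays, a pattern seen in 27.7% of all probe sets and in 47.4% of the named genes at or above the dimmest of the 40. The rises of the 21 called genes were modest in size, from 21.3% for Ect2 to 61.3% for Nusap1 on the linear scale. The share of all probe sets called, 7.25% in either direction in the full fit, varied with which arrays were in the fit. A lower count of called mitosis genes is therefore not in itself particular to them. That count varied as well. It was 13 without control replicate 1 or 2, 3 when curdlan replicate 1 was left out and 2 when curdlan replicate 2 was. With either R406 plus curdlan array left out it was 0, with 25 (without replicate 1) and 28 (without replicate 2) genes at an unadjusted p under 0.05 and 0.791% and 0.719% of all probe sets called; in each of these 6 fits 39 genes had a change above 0.

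**Figure D2:**
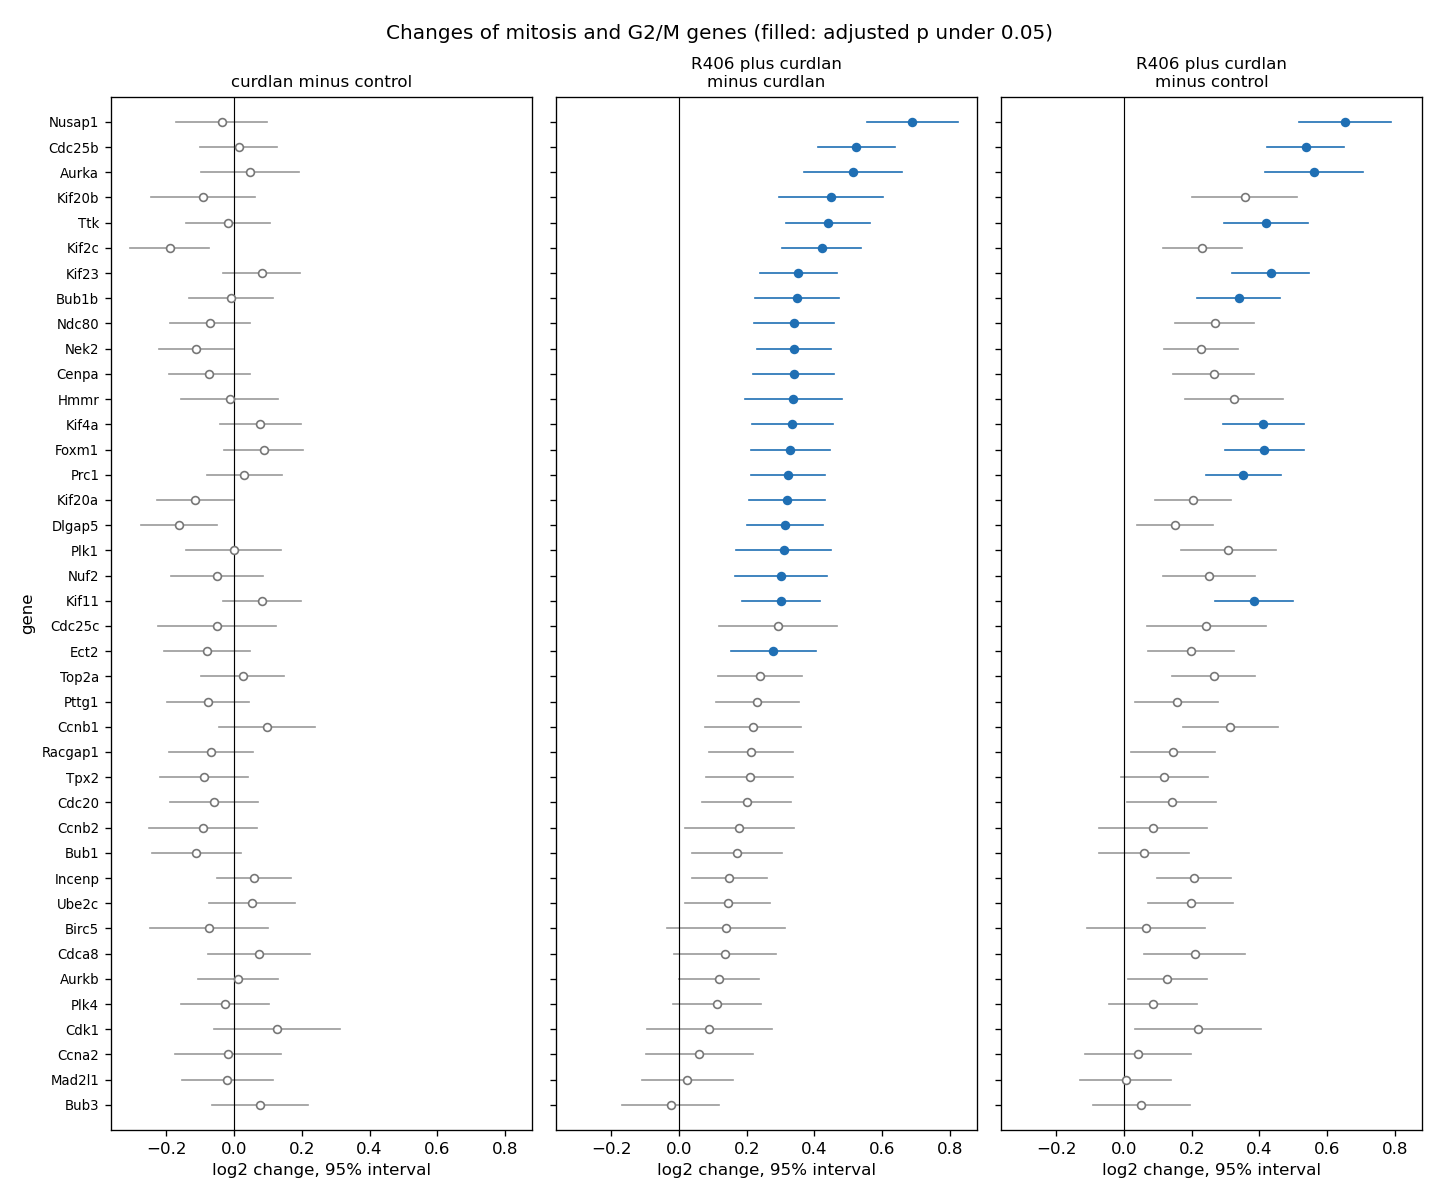
Log2 change of each of the 40 genes, with 1 panel per comparison on a shared axis; bars are 95% intervals of the limma fit with 2 arrays per group, and filled blue points passed an adjusted p under 0.05. There are 0 filled points for curdlan minus control, 21 for R406 plus curdlan minus curdlan and 10 for R406 plus curdlan minus control, all of them right of 0.

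The gene of the list that moved most was Nusap1 (probe set 10838843), whose product binds and crosslinks spindle microtubules. Its signals were 11.00 and 10.96 in control, 10.98 and 10.90 in curdlan and 11.65 and 11.61 in R406 plus curdlan arrays. The unstimulated and the curdlan-stimulated arrays overlapped, and both R406 arrays stood above all of them. It rose by 0.69 ± 0.0528 under R406 against curdlan (adjusted p = 0.00469), and 98 of the 14506 named genes had a higher change. Among the other microtubule proteins, Hmmr, a spindle assembly factor, rose by 0.34 ± 0.0565 from curdlan arrays at 10.58 and 10.65 to R406 arrays at 10.91 and 11.00. Prc1, which bundles the midzone microtubules of anaphase, rose by 0.32 ± 0.0434, from 11.76 and 11.75 to 12.09 and 12.07. Dlgap5 rose by 0.31 ± 0.0444, to 10.71 and 10.68. The adjusted p of these 3 lay between 0.019 and 0.0327. Tpx2, the activator of Aurora A on the spindle, did not pass, with 12.11 and 12.09 in curdlan and 12.33 and 12.29 in R406 arrays, a change of 0.21 ± 0.0505 (adjusted p = 0.083).

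All 6 kinesin genes measured rose under R406 against curdlan, with changes from 0.30 to 0.45 and adjusted p between 0.0106 and 0.0244. Over all probe sets, 4.02% were called higher. Kif20b, a motor of late cytokinesis and the dimmest of the 40 genes, went from 9.04 and 9.05 in curdlan to 9.50 and 9.48 in R406 arrays, with control arrays at 9.20 and 9.07. Kif2c went from 10.66 and 10.69 to 11.11 and 11.08, and its control arrays at 10.85 and 10.88 lay between those of the other groups. Its change was 0.42 ± 0.0458 against curdlan and 0.23 ± 0.0458 against control, the latter not passing (adjusted p = 0.0799). In Kif23, a subunit of the centralspindlin complex, the order differed: control arrays were lowest at 10.44 and 10.47, curdlan arrays stood at 10.52 and 10.55, and R406 arrays at 10.89 and 10.88. Kif11, which slides spindle poles apart, and the chromokinesin gene Kif4a had the same order, with R406 arrays at 11.80 and 11.79 and at 10.56 and 10.53. Kif20a, which carries the passenger complex to the midzone, was lowest with curdlan, at 11.27 and 11.29, and highest under R406, at 11.59 and 11.60.

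Of the 4 genes for polo, Aurora A and NEK2 kinases, 3 rose under R406 against curdlan, where 4.02% of all probe sets were called higher. Aurka (probe set 10852091), which matures centrosomes, gave 10.17 and 10.15 in control, 10.26 and 10.15 in curdlan and 10.75 and 10.69 in R406 plus curdlan arrays. Its R406 arrays stood apart from the other 4, which overlapped, and the rise was 0.51 ± 0.0569 (adjusted p = 0.0111). Nek2, a centrosome-separating kinase, rose by 0.34 ± 0.0431, from 11.05 and 11.03 to 11.37 and 11.38 (adjusted p = 0.016). It had a further probe set with identical values on all arrays. Plk1, the main mitotic polo-like kinase, rose by 0.31 ± 0.0551, from 12.57 and 12.50 to 12.89 and 12.80 (adjusted p = 0.0384). Plk4, the kinase of centriole duplication, did not pass, with a change of 0.11 ± 0.0511 (adjusted p = 0.284).

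Foxm1, the transcription factor of the group, rose under R406 against curdlan by 0.33 ± 0.046 (adjusted p = 0.0208). Its signals were 11.37 and 11.31 in control, 11.43 and 11.43 in curdlan, and 11.76 and 11.75 in R406 plus curdlan arrays, with no overlap between groups. The 6 genes of CDK1, its cyclins and the CDC25 phosphatases were split. Cdc25b (probe set 10840020), which starts CDK1 activation at centrosomes, was flat between control (11.00 and 11.03) and curdlan (11.03 and 11.03) and stood at 11.57 and 11.54 under R406, a rise of 0.52 ± 0.0445 (adjusted p = 0.00607). The other 5 did not pass. Ccnb1, for cyclin B1, gave 11.93 and 11.84 in control, 12.02 and 11.95 in curdlan and 12.21 and 12.19 in R406 arrays, a difference of 0.22 ± 0.0555 against curdlan (adjusted p = 0.0938). Cdc25c had a change of 0.29 ± 0.0687 (adjusted p = 0.0771), with curdlan arrays at 10.14 and 10.18 and R406 arrays at 10.48 and 10.42; the spread of its control arrays, 10.29 and 10.13, widened its error. Ccnb2, for cyclin B2, changed by 0.18 ± 0.0627 (adjusted p = 0.185), and its second probe set by 0.17 ± 0.0618 (adjusted p = 0.191). Cdk1 had a change of 0.09 ± 0.0729 and Ccna2, for cyclin A2, of 0.06 ± 0.0619, with adjusted p of 0.544 and 0.644 and 95% intervals from -0.10 to 0.28 and from -0.10 to 0.22.

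Among 8 measured kinetochore and spindle checkpoint genes, 5 rose under R406 against curdlan, where 4.02% of all probe sets were called higher. The checkpoint kinase gene Ttk had the largest change, 0.44 ± 0.0488 (adjusted p = 0.0112), from 10.40 and 10.44 in curdlan to 10.85 and 10.88 in R406 arrays, with control arrays at 10.47 and 10.41. Bub1b, for the checkpoint protein BUBR1, rose by 0.35 ± 0.0486, from 10.38 and 10.46 to 10.77 and 10.77. Ndc80 and Nuf2, which encode partners in the microtubule-binding complex of the kinetochore, rose by 0.34 ± 0.046 and 0.30 ± 0.0531. Cenpa, for the centromeric histone H3 variant, rose by 0.34 ± 0.0469, from 10.36 and 10.38 to 10.71 and 10.71. The remaining members did not pass: Bub1, at 11.64 and 11.73 in curdlan and 11.86 and 11.85 in R406 arrays, had an adjusted p of 0.138. The checkpoint genes Mad2l1 and Bub3 were the pair whose R406 and curdlan arrays overlapped, with changes of 0.02 ± 0.0531 and -0.02 ± 0.0559 (adjusted p = 0.84 and 0.847). Mad2l1 lay between 12.03 and 12.12 on all 6 arrays.

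The chromosomal passenger complex had 0 of its 4 genes called under R406 against curdlan, at limma adjusted p of 0.125 or above. Over all probe sets, 4.02% were called higher and 3.23% lower. At an unadjusted limma p under 0.05 there was 1 gene, Incenp, where 22% of all probe sets met that limit. With 4 genes, these counts lie near those shares. Aurkb, the kinase of the complex, gave 12.43 and 12.43 in curdlan and 12.54 and 12.55 in R406 arrays, a change of 0.12 ± 0.0463. Incenp, the scaffold, changed by 0.15 ± 0.0431, Birc5, for survivin, by 0.14 ± 0.0681, and Cdca8, for borealin, by 0.14 ± 0.059. In each of these 4 genes both R406 arrays lay above both curdlan arrays, a pattern seen in 27.7% of all probe sets. Among named genes at least as bright as the dimmest measured mitosis gene, 47.4% had this pattern. In the regulators of anaphase, Cdc20, an activator of the anaphase-promoting complex, had a change of 0.20 ± 0.0513, Ube2c, its ubiquitin-conjugating enzyme, of 0.14 ± 0.0497, and Pttg1, for securin, of 0.23 ± 0.0477. Their adjusted p lay between 0.0555 and 0.181, and none was called. The signals of Cdc20 were 11.21 and 11.21 in control, 11.20 and 11.11 in curdlan and 11.36 and 11.34 in R406 arrays. Of the cytokinesis genes Ect2, a RhoA activator, rose by 0.28 ± 0.0497 (adjusted p = 0.0384), while Racgap1 had a change of 0.21 ± 0.0489 (adjusted p = 0.0741). Top2a, for the topoisomerase that untangles sister chromatids, gave 12.30 and 12.37 in control, 12.34 and 12.37 in curdlan and 12.59 and 12.60 in R406 arrays, a change of 0.24 ± 0.0485 (adjusted p = 0.0534). At the threshold, Ect2 and Plk1 were the called genes with the highest adjusted p, and Top2a and Pttg1 the uncalled ones with the lowest.

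**Figure D3:**
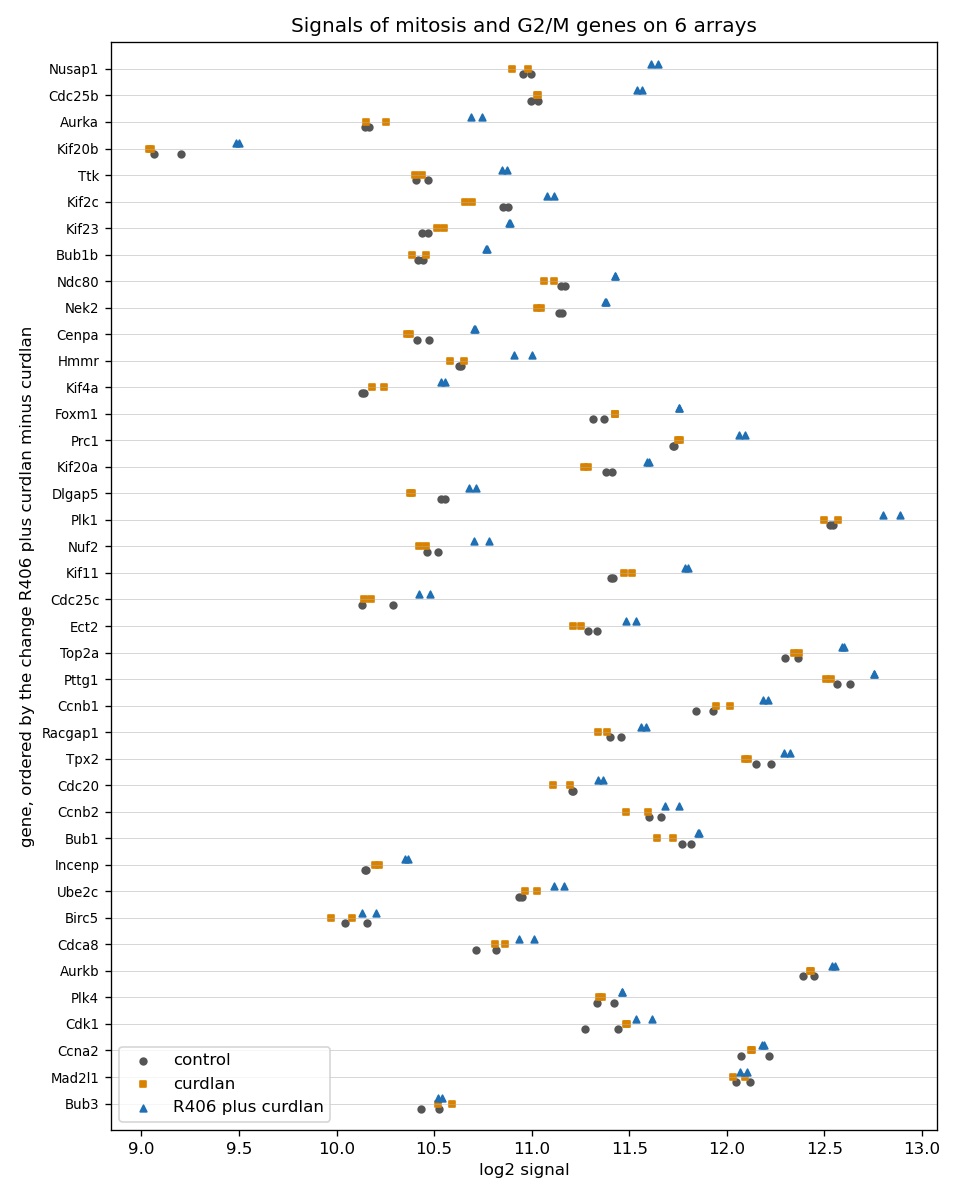
Log2 signal of the 40 genes on all 6 arrays, with 1 row per gene, ordered by the change R406 plus curdlan minus curdlan, and 2 points per group (grey circles control, orange squares curdlan, blue triangles R406 plus curdlan). The blue points lie right of the orange ones in all rows but those of Mad2l1 and Bub3, and in 16 rows the grey and orange points overlap.

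Against unstimulated control cells, 10 of the 40 genes were higher under R406 plus curdlan and 0 lower, where 1.44% of all probe sets and 2.92% of named genes at or above the dimmest of the 40 were called higher and 0.791% of all probe sets lower. This comparison shares the R406 plus curdlan arrays with the previous one, so the values are given side by side. The 10 genes were Nusap1 at 0.65 ± 0.0528, Aurka at 0.56 ± 0.0569, Cdc25b at 0.54 ± 0.0445, Kif23 at 0.43 ± 0.0447, Ttk at 0.42 ± 0.0488, Foxm1 at 0.42 ± 0.046, Kif4a at 0.41 ± 0.047, Kif11 at 0.38 ± 0.0449, Prc1 at 0.35 ± 0.0434 and Bub1b at 0.34 ± 0.0486. Their adjusted p lay between 0.0127 and 0.0432, and each was also called against curdlan. The other 11 genes called against curdlan had adjusted p of 0.0601 to 0.16 against control. Ccnb1 stood 0.31 ± 0.0555 above control (adjusted p = 0.0648). The median over the 40 genes was 0.23, against -0.01 over all probe sets, and all 40 changes were above 0, as in 46.9% of all probe sets and 54.6% of those named genes. An unadjusted p under 0.05 was reached by 32 genes (20.4% of all probe sets and 26.7% of those named genes). In 36 genes both R406 arrays lay above both control arrays, as in 25.7% of all probe sets and 38.9% of the same named genes. Here too the count rested on few arrays: it was 0 when either control array (replicate 1 or 2) or either R406 plus curdlan array (replicate 1 or 2) was left out, with 22 to 30 genes at an unadjusted p under 0.05, and 3 when either curdlan array (replicate 1 or 2) was, namely Aurka, Cdc25b and Nusap1.

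Further genes of the cell cycle were read from lists that do not overlap with the 45 genes. Of 41 measured mitotic genes outside the list, 14 rose under R406 against curdlan and 0 fell, where 4.02% of all probe sets were called higher and 3.23% lower, and their median change was 0.22. The 3 with the largest rise were Oip5, which helps to load the centromeric histone, at 0.62 ± 0.0547, the kinase gene Mastl, whose product restrains the phosphatase that opposes CDK1, at 0.60 ± 0.0593, and Depdc1b at 0.59 ± 0.0446. With curdlan alone 0 of these 41 were called by limma (1.59% of all probe sets), with 7 at an unadjusted p under 0.05 (14.4% of all probe sets). Against control 7 were higher under R406 (1.44% of all probe sets), led by Cenpl at 0.68 ± 0.046, Mastl at 0.59 ± 0.0593 and Depdc1b at 0.58 ± 0.0446. Of 19 genes of the anaphase-promoting complex and its regulators, 3 rose under R406 against curdlan and 0 fell, beside the same 4.02% and 3.23% of all probe sets and 7.95% of named genes at or above the dimmest of the 40 called higher. They were Anapc2, a core subunit, at 0.30 ± 0.0511, the inhibitor Fbxo5 at 0.30 ± 0.0493 and the activator Fzr1 at 0.28 ± 0.0447, which was also higher than in control, by 0.33 ± 0.0447. The 11 measured genes of cohesin and chromatin partners had 0 called in the same limma comparison, with 1 at an unadjusted p under 0.05 (22% of all probe sets) and a median change of 0.07; with so few genes, a count of 0 lies near the shares called over all probe sets.

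Of 41 measured genes of G1/S and DNA replication, 1 rose and 3 fell under R406 against curdlan, and the median change was 0.01. Over all probe sets 4.02% were called higher and 3.23% lower, and among named genes at or above the dimmest of the 40 mitosis genes 7.95% and 7.3%, so these counts lie near the background. The histone mRNA-binding protein gene Slbp rose by 0.39 ± 0.0513, while Ccnd1, for cyclin D1, fell by 1.11 ± 0.0789 and the origin recognition genes Orc1 and Orc6 fell by 0.38 ± 0.0501 and 0.25 ± 0.0458. With curdlan alone 1 gene was called, where 1.04% of all probe sets were called higher: Ccne2, for cyclin E2, rose by 0.43 ± 0.048. Against control Ccnd1 fell by 0.64 ± 0.0789 under R406, where 0.791% of all probe sets were called lower. Whether this list differs from the mitosis genes was not tested.

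Regulators of mitotic transcription went both ways. Of 16 measured, 4 rose and 2 fell under R406 against curdlan, where 4.02% of all probe sets were called higher and 3.23% lower. The 3 largest rises were those of Tfdp2, a partner of E2F factors, at 0.65 ± 0.0493, Foxo3, a FOXO factor of growth arrest, at 0.62 ± 0.0922 and Rbl2, for the pocket protein p130, at 0.49 ± 0.0497. Foxo1 fell by 0.78 ± 0.0543 and the NF-Y subunit gene Nfyb fell by 0.32 ± 0.0438. With curdlan these last 2 genes rose, by 0.64 ± 0.0543 and 0.44 ± 0.0438, as did E2f5 by 0.49 ± 0.0628, against 1.04% of all probe sets called higher. Against control 2 were higher under R406 (1.44% of all probe sets): E2f7, for a repressor of the E2F family, by 0.46 ± 0.0533 and Tfdp2 by 0.48 ± 0.0493. In the G2 checkpoint and entry list of 16 measured genes, 3 rose and 4 fell under R406 against curdlan. The shares beside them are the same, 4.02% and 3.23% of all probe sets and 7.95% and 7.3% of named genes of that brightness. The CDK inhibitor genes Cdkn1b and Cdkn2c rose by 0.60 ± 0.0508 and 0.46 ± 0.0521, and the checkpoint kinase gene Chek2 by 0.30 ± 0.0563. Of the 4 that fell, the 3 with the largest change were Plk3, the stress-responsive polo-like kinase gene, which fell by 3.31 ± 0.0438, Gadd45a, which fell by 1.25 ± 0.0487, and the CDK inhibitor gene Cdkn1a, which fell by 0.74 ± 0.0697. With curdlan 2 genes of this list, Plk3 and Cdc25a, rose by 1.02 ± 0.0438 and 0.32 ± 0.0429 (1.04% of all probe sets called higher). Against control, Wee1, for the kinase that holds CDK1 inactive, was higher under R406 by 0.39 ± 0.048 and Cdkn2c by 0.48 ± 0.0521, while Plk3 and Gadd45a were lower, at -2.30 ± 0.0438 and -1.03 ± 0.0487 (1.44% of all probe sets called higher and 0.791% lower). The adjusted p of every gene called in these lists lay between 6.09e-05 and 0.0487.

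**Figure D4:**
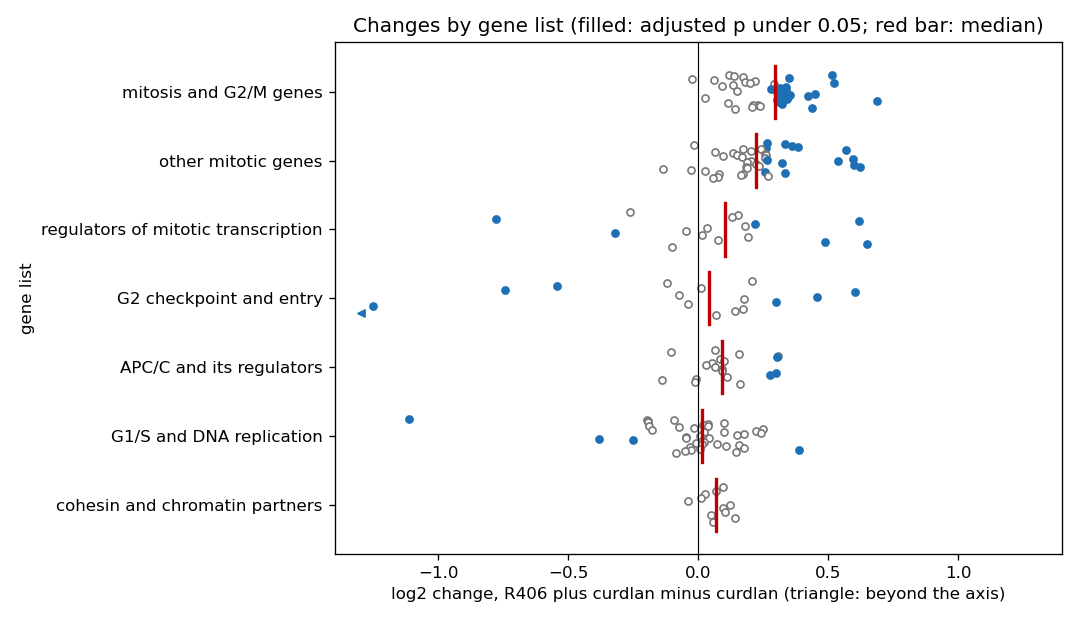
Log2 change under R406 plus curdlan against curdlan for each measured gene of the mitosis and G2/M list and of 6 further cell cycle lists; filled blue points passed an adjusted p under 0.05, and red bars are list medians. The medians are 0.30 for the mitosis and G2/M genes, 0.22 for the other mitotic genes and 0.01 for the G1/S and DNA replication genes; the triangle marks Plk3, at -3.31, beyond the axis.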

How the data were processed

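Total RNA of 6 samples, 2 per group by their titles, was measured on rat Affymetrix arrays. The authors deposited log2 signals, 1 for each probe set on each array; Affymetrix Expression Console is the tool in the submitters' processing notes. The log base was read from the range of the values, and the sources used here give no version, background correction, summarisation, normalization method or build. Normalization between arrays can hide a shift common to most transcripts.

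The platform annotation named 1 gene for 15310 of 29214 probe sets, more than 1 for 323 and no gene for 13581; the first kind alone was used for names. All 6 arrays entered 1 fit of 3 groups by lmFit and eBayes (limma 3.58.1 in R 4.3.3, no filter, 3 residual and 2.155 prior degrees of freedom), with calls at a Benjamini-Hochberg adjusted p under 0.05 across the table. Errors are standard errors of that fit. It was tested on simulated data.

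The labels name no separate cultures, so p-values measure only how far these arrays spread, possibly for technical reasons, and 2 arrays a group limit the precision. The genes, lists and tests were chosen with earlier results of these data known. Full values are given for called genes (up to 12 per direction and comparison) and always for Foxm1, Plk1, Aurka, Aurkb, Ccnb1, Ccnb2, Ccna2, Cdk1, Cdc20, Mki67 (if measured) and Top2a; from each of 6 pathway lists, for the called genes with the 3 largest changes per direction. Other genes are named to account for the list. Alternatives covered normalization, centring, dim probe sets, the probe sets and samples in the fit, the variance prior, the probe set of a gene, the threshold, each array left out, and the replicate number as a block.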

Additional observations from a re-analysis of the deposited data

How the results depend on the processing

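With curdlan the count of called mitosis genes was 2 among probe sets above the median signal and 2 with a variance prior that follows the signal, and 0 under every other alternative run; its median change ranged from -0.05373 to -0.01253 without each array in turn. Under R406 against curdlan the count of 21 became 33 with that prior, 13 with only the 4 arrays compared and 2 at an adjusted p under 0.01 (Cdc25b and Nusap1), and lay between 0 and 13 without each array in turn; the median change then ranged from 0.2633 to 0.308. Against control the count of 10 became 27 among probe sets above the median signal, 22 among probe sets with 1 symbol, 29 with the variance prior that follows the signal, 3 with only the 4 arrays compared and 0 at an adjusted p under 0.01 (32 genes at an unadjusted p under 0.05), and lay between 0 and 3 without each array in turn; its median change was 0.2541 with arrays centred on their median and ranged from 0.2119 to 0.2522 without each array. The share of all probe sets called also moved between fits, as given above for curdlan and for R406 against curdlan. A changed count is therefore not in itself particular to the mitosis genes. Fits with fewer arrays have fewer degrees of freedom. Other causes were not tested. No change of a called gene had its sign turned by any alternative run. The deviations of same-numbered arrays correlated at -0.115 between control and curdlan and -0.00454 between control and R406 plus curdlan. Between curdlan and R406 plus curdlan the correlation was 0.113. The labels do not say whether same-numbered arrays were handled together, and these correlations cannot settle it. With the replicate number as a block the counts were 0 with curdlan, 10 under R406 against curdlan and 0 against control. With the control numbers crossed, an alternative chosen after seeing the data, the block gave counts of 0, 15 and 2. Signals over background were not available here, so what dim probe sets could show is unknown.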
